A study of Mus musculus with 10 samples.

Results

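The interferon response genes described here are 38 mouse genes, the receptor chains, transcription factors, sensors and induced effectors of the response to interferon, matched by gene symbol in a pair of expression tables, one for each layer of the enamel organ. Of the 38, 35 had a value in ameloblasts, among 16292 genes listed, and 37 in stratum intermedium, among 16638. Cxcl10, Mx1 and Mx2 had no value in ameloblasts, and Mx1 had none in stratum intermedium. Each table holds only genes that reach 10 in 3 or more of its libraries, a floor that the 3 KO libraries can meet by themselves and the 2 WT libraries cannot. All 35 and all 37 passed the filter on low values used here, a mean of at least 10.

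Ameloblasts are the epithelial cells that secrete and mature enamel, and the stratum intermedium is the cell layer at their back. Both were cut by laser from frozen sections of mouse hemi-mandibles, and their polyA RNA was sequenced in 10 libraries. The groups were claudin-10 KO ameloblasts (3 libraries), WT ameloblasts (2 libraries), claudin-10 KO stratum intermedium (3 libraries) and WT stratum intermedium (2 libraries). Claudin-10 is a tight junction protein that forms ion channels between cells. The labels give the genotype as KO or WT, and do not state the strain, age or sex of the animals, the kind of knockout or the deleted exons of Cldn10. Libraries are called by the prefix of their names, KO1, KO3, KO9, WT5 and WT10, which recur in both layers and were taken to mark the mouse, although no label states it. All values are the authors' normalized counts per gene, and each layer was normalized on its own.

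Interferons are secreted proteins that warn cells of viral nucleic acid. Type I interferon binds a receptor made of the IFNAR1 and IFNAR2 chains, whose kinases phosphorylate STAT2 inside the cell. Phosphorylated STAT2 works in a complex with IRF9 that binds a promoter element called the interferon-stimulated response element (ISRE), which switches on a large set of antiviral genes. Type II interferon acts through a different element, the gamma-activated site (GAS). Many of these genes keep a low level in uninfected tissue, and several are expressed strongly in macrophages and other immune cells.

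The promoters of several genes named below are shown first, all chosen because they hold an ISRE match. For the members with library values below, the windows of Ifit2, Irf1, Irf7, Irf9, Ifnar1, Ifnar2, Psmb8 and Tap1 hold none and are not shown. Those of Oas1a and Cxcl10 hold a match but are not shown, and Rtp4 and Ifi27 had no window. Each promoter shown is a RefSeq window on GRCm38.p6, from 250 bases before to 50 bases after the transcript start. It is written on the gene's own strand, and 30 of the 38 genes had such a window. Capitals mark ISRE matches, searched as GAAA, any 2 bases and GAAA again on both strands, and, in Eif2ak2 alone among those shown, also a GAS match, searched as TTCNNNGAA, which reads the same on both strands. Ifit1 lies at chr19:34640639-34640938 on the plus strand, Ifit3 at chr19:34583279-34583578 (plus), Isg15 at chr4:156200769-156201068 (minus), Stat2 at chr10:128270248-128270547 (plus), Gbp2 at chr3:142620413-142620712 (plus), Ifih1 at chr2:62646206-62646505 (minus) and Eif2ak2 at chr17:78882523-78882822 (minus).
Ifit1: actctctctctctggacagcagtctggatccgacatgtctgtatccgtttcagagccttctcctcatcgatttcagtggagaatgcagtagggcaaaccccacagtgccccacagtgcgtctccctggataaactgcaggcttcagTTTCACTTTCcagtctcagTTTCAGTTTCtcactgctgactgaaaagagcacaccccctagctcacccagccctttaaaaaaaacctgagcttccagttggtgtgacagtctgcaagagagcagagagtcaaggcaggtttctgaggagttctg
Ifit3: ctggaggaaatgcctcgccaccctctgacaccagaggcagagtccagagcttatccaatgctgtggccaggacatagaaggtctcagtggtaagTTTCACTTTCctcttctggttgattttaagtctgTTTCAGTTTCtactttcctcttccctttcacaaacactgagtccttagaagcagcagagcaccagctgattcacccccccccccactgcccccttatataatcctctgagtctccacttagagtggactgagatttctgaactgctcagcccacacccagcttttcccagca
Isg15: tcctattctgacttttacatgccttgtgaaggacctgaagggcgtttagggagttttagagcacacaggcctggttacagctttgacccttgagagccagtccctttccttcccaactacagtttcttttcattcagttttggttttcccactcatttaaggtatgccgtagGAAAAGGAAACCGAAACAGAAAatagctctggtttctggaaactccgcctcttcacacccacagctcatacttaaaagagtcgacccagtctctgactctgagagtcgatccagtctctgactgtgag
Stat2: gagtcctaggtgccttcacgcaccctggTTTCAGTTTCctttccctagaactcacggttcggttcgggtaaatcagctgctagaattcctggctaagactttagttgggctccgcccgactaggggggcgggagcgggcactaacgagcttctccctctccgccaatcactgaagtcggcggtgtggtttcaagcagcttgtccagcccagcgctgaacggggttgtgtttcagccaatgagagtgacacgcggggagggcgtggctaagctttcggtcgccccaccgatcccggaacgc
Gbp2: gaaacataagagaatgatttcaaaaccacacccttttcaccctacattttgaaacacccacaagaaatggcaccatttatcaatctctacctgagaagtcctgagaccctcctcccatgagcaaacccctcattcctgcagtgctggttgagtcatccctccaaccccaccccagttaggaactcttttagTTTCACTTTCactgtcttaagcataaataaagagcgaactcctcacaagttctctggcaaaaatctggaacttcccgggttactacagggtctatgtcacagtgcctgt
Ifih1: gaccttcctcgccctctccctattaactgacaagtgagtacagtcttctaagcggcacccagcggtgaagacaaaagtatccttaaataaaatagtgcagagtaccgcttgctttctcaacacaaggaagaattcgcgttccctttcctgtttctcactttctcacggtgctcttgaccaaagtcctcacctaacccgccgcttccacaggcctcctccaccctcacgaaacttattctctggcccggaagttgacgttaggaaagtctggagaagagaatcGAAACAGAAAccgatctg
Eif2ak2: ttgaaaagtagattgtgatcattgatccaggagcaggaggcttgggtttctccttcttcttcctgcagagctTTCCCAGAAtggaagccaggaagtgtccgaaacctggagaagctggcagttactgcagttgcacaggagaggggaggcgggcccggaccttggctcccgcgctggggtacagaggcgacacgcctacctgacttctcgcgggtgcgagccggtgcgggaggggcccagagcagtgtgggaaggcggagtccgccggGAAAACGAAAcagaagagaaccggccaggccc

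The neighbours Ifit1 and Ifit3 carried the same pair of matches, TTTCACTTTC and TTTCAGTTTC, which began 104 and 85 bases before the start of Ifit1 and 156 and 122 bases before the start of Ifit3. Gbp2 had TTTCACTTTC beginning 59 bases before its start. In Isg15, 3 overlapping matches began 78, 72 and 66 bases before the start and make up a single run of capitals. The matches of Ifih1 and Eif2ak2 lay after the start, by 32 and 18 bases, and that of Stat2 began 222 bases before it. Of the 30 genes with a window, 13 held an ISRE match, against 3.99% of the 27025 genes in the same RefSeq table, and 10 held a GAS match, against 9.55%. In Bst2 the GAS match overlaps the first of its ISRE matches. A match is a description of letters in these windows and was not measured as a binding site.

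Before the genotypes were compared, the libraries were checked against their labels. Cldn10 averaged 279 ± 130 normalized counts in KO ameloblasts and 676 ± 107 in WT ameloblasts, and 618 ± 335 in KO stratum intermedium and 4811 ± 3459 in WT stratum intermedium (SD). In a two-sided exact permutation test over libraries p was 0.2 and 0.1, and 0.1 is the smallest p that 3 against 2 libraries allow. In the limma fits used below, the log2 difference of Cldn10 was -1.38 in ameloblasts (SE 0.46, unadjusted limma p 0.0208, adjusted p 0.989). In stratum intermedium it was -2.87 (SE 0.56, unadjusted limma p 0.0012, adjusted p 0.9999). The 7 ameloblast markers, among them Amelx, Ambn and Enam, took 2.18% to 9.12% of the summed values in ameloblast libraries and 0.123% to 0.942% in stratum intermedium libraries. Not every marker followed this sum. Odam was higher in stratum intermedium in KO1 (3987 against 1159 in ameloblasts), KO9 (897 against 88.2) and WT10 (2649 against 128). In KO3 and WT5 Odam was higher in ameloblasts, and Klk4 and Amtn were also mixed. The 7 stratum intermedium markers took 0.078% to 0.186% in ameloblast libraries and 0.144% to 0.394% in stratum intermedium libraries, which overlap. KO1 and KO3 carried Xist and no Ddx3y, whereas KO9, WT5 and WT10 carried Ddx3y, so sex was not balanced between the genotypes. The library names also end in a group number that the labels do not explain. Group 1 holds KO3 and WT5, group 2 holds KO9 and WT10, and group 3 holds KO1. No label says whether the mice of a genotype came from separate litters, and the p-values below cover the spread from library to library alone.

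No interferon response gene passed the test for a claudin-10 effect in either layer, and neither did Cldn10 itself. A gene that did not pass may therefore still differ between the genotypes. Of all 16212 genes tested in ameloblasts and 16543 in stratum intermedium, 0 (0%) had a limma p-value under 0.05 after Benjamini-Hochberg adjustment over all genes, and the smallest adjusted p was 0.989 and 0.404. At an unadjusted p under 0.05, the 35 measured members held 1 gene lower in KO ameloblasts, Ifih1, against 0.82% of all genes, and 0 higher, against 2.25% of all genes. The 37 members measured in stratum intermedium held 1 gene lower in KO, Eif2ak2, against 0.786% of all genes, and 0 higher, against 1.27%. By direction alone, 21 of 35 members were lower in KO ameloblasts (47% of all genes) and 21 of 37 in KO stratum intermedium (48.1% of all genes). The median member differed by -0.25 on the log2 scale in ameloblasts, where the median of all genes was 0.035, and by -0.074 in stratum intermedium, where it was 0.017. In ameloblasts this median rests on single WT libraries: it was 0.098 without WT5, with 16 of 35 members lower in KO, and -0.92 without WT10, with 31 of 35 lower. The median of all genes was -0.00098 without WT5 and -0.056 without WT10. The share of all genes lower in KO was not counted in these settings.

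**Figure D1:**
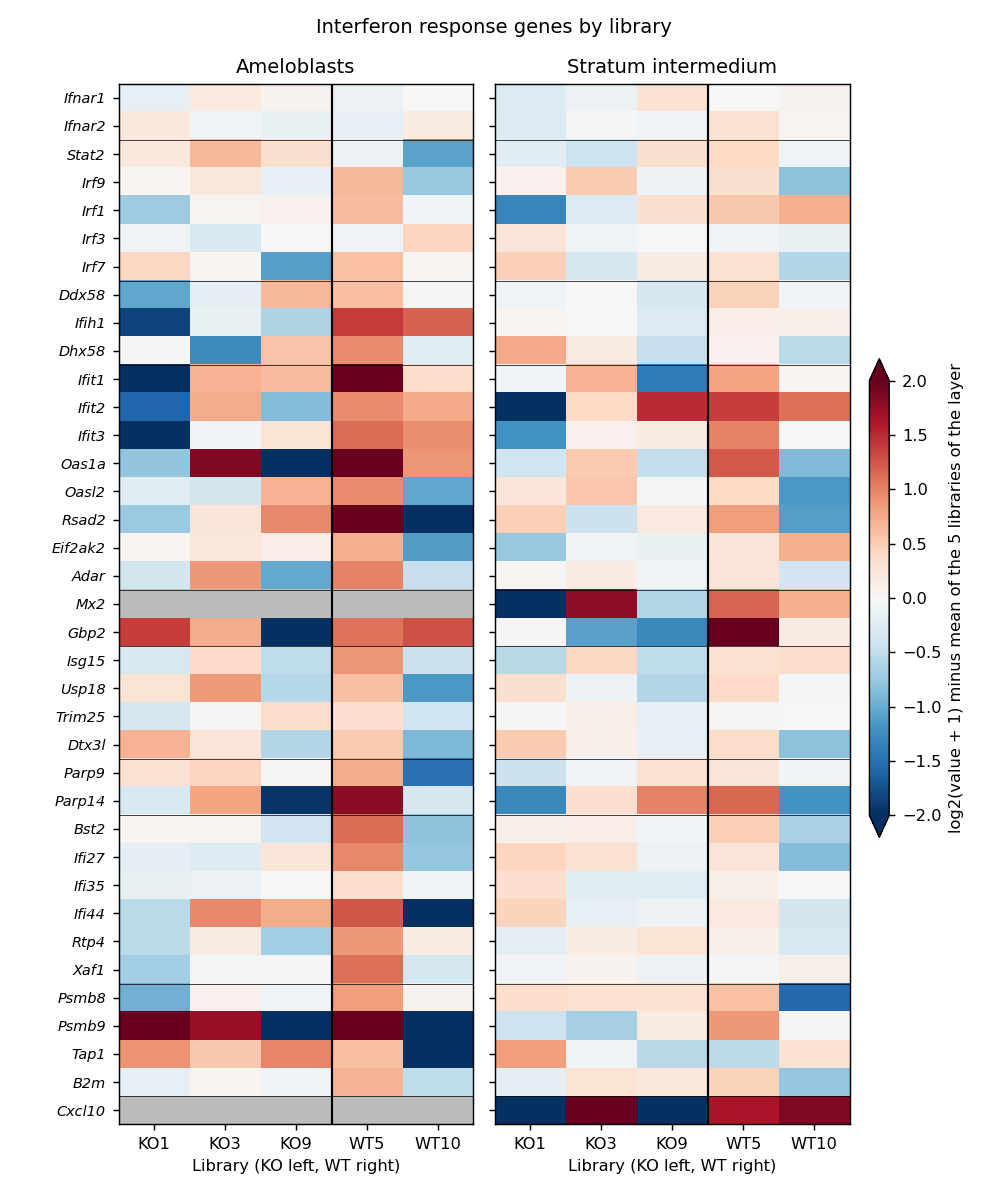
Each measured interferon response gene (rows, ordered by role) in each library (columns, KO left and WT right) of ameloblasts (left) and stratum intermedium (right). The colour is log2(normalized count + 1) minus the mean of the 5 libraries of the layer, with the scale ending at 2 either way and grey for a gene without a value. WT5 is the reddest column, with the highest value in 24 of 35 genes in ameloblasts and 16 of 37 in stratum intermedium.

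The receptor chains were among the more even members. Ifnar1, one chain of the type I interferon receptor, had 1020.0, 1314 and 1197 normalized counts in KO1, KO3 and KO9 ameloblasts, against 1051 and 1151 in WT5 and WT10 ameloblasts, a log2 difference of 0.09 (SE 0.24). The KO libraries lay on both sides of the WT libraries. In stratum intermedium it had 1292, 1417 and 1890.4 in KO1, KO3 and KO9, against 1550.0 and 1615 in WT5 and WT10 (log2 difference -0.06, SE 0.24), and again the groups overlapped. Ifnar2, the second chain, had 1374, 1141 and 1072 normalized counts in KO1, KO3 and KO9 ameloblasts, against 1057 and 1321 in WT5 and WT10. Its log2 difference there was 0.0090 (SE 0.25). In stratum intermedium Ifnar2 had 883, 1048 and 1029.9 in KO1, KO3 and KO9, against 1322 and 1115 in WT5 and WT10. There all 3 KO libraries lay below both WT libraries, by -0.30 on the log2 scale (SE 0.22, 95% interval -0.83 to 0.22).

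Among the transcription factors, Stat2, whose protein joins IRF9 at the ISRE, was the single member with all KO libraries above both WT libraries in ameloblasts. It had 177, 241 and 190.3 normalized counts in KO1, KO3 and KO9, against 142 and 72.2 in WT5 and WT10. The difference of 0.98 on the log2 scale (SE 0.47, 95% interval -0.12 to 2.09) had an unadjusted limma p of 0.073 and an adjusted p of 0.989. Non-overlap upward was seen for 9.09% of all genes, so 1 of 35 members is below that share. In stratum intermedium Stat2 had 121, 105 and 175 in KO1, KO3 and KO9, against 186 and 133 in WT5 and WT10, with overlapping groups (log2 difference -0.26, SE 0.48).

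Irf9, the DNA-binding partner of STAT2, had 304, 344 and 263 normalized counts in KO1, KO3 and KO9 ameloblasts, against 471 and 174 in WT5 and WT10. The 3 KO libraries all lay between the 2 WT libraries, and the log2 difference was 0.077 (SE 0.48). In stratum intermedium it had 617, 829.8 and 538 in KO1, KO3 and KO9, against 726 and 326 in WT5 and WT10 (log2 difference 0.42, SE 0.40). Irf7, the factor that amplifies type I interferon production, had 85.0, 64.9 and 29.1 in KO1, KO3 and KO9 ameloblasts, against 95.3 and 65.9 in WT5 and WT10 (log2 difference -0.53, SE 0.67). Its stratum intermedium values were 143, 79.9 and 114 in KO1, KO3 and KO9, against 126 and 68.2 in WT5 and WT10, with a log2 difference of 0.23 (SE 0.57). Both layers overlapped for Irf7.

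Irf1, a factor that responds to type II interferon, had 96.2, 200.4 and 301 normalized counts in KO1, KO3 and KO9 stratum intermedium, against 351 and 402 in WT5 and WT10. All KO libraries were below both WT libraries, by -1.06 on the log2 scale (SE 0.53, 95% interval -2.29 to 0.17, unadjusted limma p 0.0823). In ameloblasts it had 136, 235 and 239 in KO1, KO3 and KO9, against 346 and 217 in WT5 and WT10, and the groups overlapped (log2 difference -0.47, SE 0.44). Irf3, which relays signals from the RNA sensors, had log2 differences of -0.30 in ameloblasts and 0.17 in stratum intermedium.

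The RNA sensors hold the member with the smallest p in ameloblasts. Ifih1, a sensor of long double-stranded RNA, had 26.5, 89.6 and 64.0 normalized counts in KO1, KO3 and KO9 ameloblasts, against 261 and 223 in WT5 and WT10. Every KO library was below both WT libraries, and the group means were 60.0 ± 31.7 in KO and 242 ± 26.6 in WT (SD). The log2 difference was -2.15 (SE 0.63, 95% interval -3.65 to -0.66), with an unadjusted limma p of 0.0114 and an adjusted p of 0.989. The unadjusted p was 0.082 with sex as a covariate. Within library groups the log2 difference was -1.53 between KO3 and WT5 and -1.79 between KO9 and WT10. In stratum intermedium the same gene had 175, 166 and 138 in KO1, KO3 and KO9, against 183 and 180.0 in WT5 and WT10. The KO libraries were again all below, but by -0.19 on the log2 scale (SE 0.40). Its 2 relatives gave no such gap in ameloblasts: the short-RNA sensor Ddx58 had a log2 difference of -0.47 and the regulatory helicase Dhx58 of -0.60, both with overlapping groups.

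Among the effectors that bind RNA or make nucleotides, the Ifit genes, whose proteins bind viral RNA and block its translation, had negative log2 differences in both layers. Ifit3 had 54.1, 254 and 322 normalized counts in KO1, KO3 and KO9 ameloblasts, against 577 and 506 in WT5 and WT10. The KO libraries were all below the WT libraries, by -1.71 on the log2 scale (SE 0.75, unadjusted limma p 0.0572), and the lowest library was KO1, without which the log2 difference was -0.91. Ifit2 had 20.8, 108 and 34.8 in KO1, KO3 and KO9 ameloblasts, against 124 and 109.7 in WT5 and WT10 (log2 difference -1.42, SE 0.79). These groups did not overlap, although KO3 came within 2 normalized counts of WT10. Ifit1 had 1.08, 59.0 and 55.9 in KO1, KO3 and KO9 ameloblasts, against 212 and 46.2 in WT5 and WT10, and the groups overlapped. Its log2 difference of -2.38 (SE 1.61) was set by KO1 at the low end and WT5 at the high end. In all, 3 of 35 members, Ifit2, Ifit3 and Ifih1, had all KO libraries below both WT libraries in ameloblasts, or 8.57%, against 9.26% of all genes.

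In stratum intermedium the Ifit genes overlapped between genotypes. Ifit3 had 156, 386 and 403 normalized counts in KO1, KO3 and KO9, against 722 and 362 in WT5 and WT10 (log2 difference -0.82, SE 0.53). Ifit2 had 5.76, 183 and 393 in KO1, KO3 and KO9, against 365 and 299.7 in WT5 and WT10, with a log2 difference of -2.07 (SE 1.56). KO1 was the lowest library for both. Ifit1 had 147, 252 and 57.9 in KO1, KO3 and KO9, against 269 and 159.7 in WT5 and WT10 (log2 difference -0.68, SE 0.68). Reads of Ifit3 and its near copy Ifit3b may have been split in the authors' counting.

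Eif2ak2, the kinase that halts translation when it binds double-stranded RNA, had the smallest p among the members in stratum intermedium. It had 448, 722 and 695 normalized counts in KO1, KO3 and KO9, against 902 and 1243 in WT5 and WT10, with no overlap. The log2 difference was -0.80 (SE 0.31, 95% interval -1.53 to -0.07), with an unadjusted limma p of 0.0362. That p was 0.093 with the library group as a block, 0.066 with library weights, 0.227 with sex as a covariate, 0.082 without KO1 and 0.189 without WT10. In ameloblasts the same gene had 423, 475 and 445 in KO1, KO3 and KO9, against 667 and 188 in WT5 and WT10, so that the KO libraries sat between the WT libraries (log2 difference 0.33, SE 0.53). Oas1a, which makes the oligoadenylate that activates RNase L in mice, had 8.65, 59.0 and 0 normalized counts in KO1, KO3 and KO9 ameloblasts, against 71.7 and 29.8 in WT5 and WT10. The groups overlapped, and the log2 difference of -2.51 (SE 1.75) depends on the pseudocount because KO9 was at 0. In stratum intermedium it had 36.0, 69.0 and 34.1 in KO1, KO3 and KO9, against 113 and 25.5 in WT5 and WT10 (log2 difference -0.29, SE 0.88). The other effectors of this group, Oasl2, Rsad2 and Adar, had log2 differences from -0.44 to 0.38 in ameloblasts and from 0.10 to 0.63 in stratum intermedium, all with overlapping groups.

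The GTPase Gbp2, which acts at membranes around intracellular pathogens, had 42.7, 19.2 and 16.5 normalized counts in KO1, KO3 and KO9 stratum intermedium, against 192 and 47.3 in WT5 and WT10. The groups did not overlap (log2 difference -1.95, SE 0.92, unadjusted limma p 0.0696), although KO1 and WT10 lay close together, and the log2 difference was -0.95 without WT5. In ameloblasts it had 57.7, 36.7 and 0 in KO1, KO3 and KO9, against 46.6 and 53.1 in WT5 and WT10, with KO1 the highest and KO9 the lowest library. The chemokine Cxcl10, which attracts activated T cells, was listed at 0, 25.5 and 0 in KO1, KO3 and KO9 stratum intermedium, against 19.8 and 23.1 in WT5 and WT10. KO3 was above both WT libraries. Together, 5 of 37 members had all KO libraries below both WT libraries in stratum intermedium, namely Ifnar2, Irf1, Ifih1, Eif2ak2 and Gbp2, or 13.5%, against 7.44% of all genes. The opposite was seen for 0 members, against 7.76% of all genes.

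**Figure D2:**
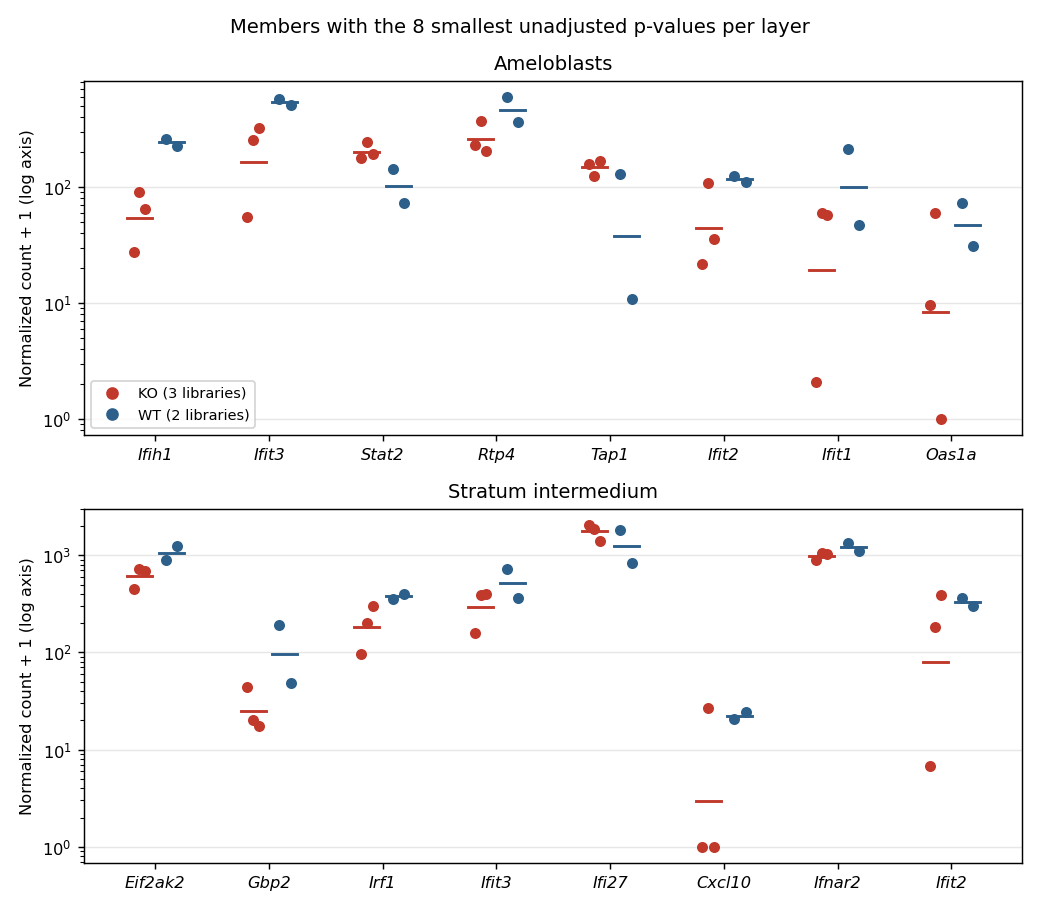
Normalized counts plus 1 (log axis) of the 8 members with the smallest unadjusted p in each layer, with KO libraries in red left of WT libraries in blue, one point per library and a bar at the mean of the log values. Ifih1, Ifit3 and Ifit2 in ameloblasts, and Eif2ak2, Gbp2, Irf1 and Ifnar2 in stratum intermedium, have every KO point below both WT points.

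Isg15, the ubiquitin-like protein that is joined to other proteins during the response, had 50.9, 83.4 and 44.2 normalized counts in KO1, KO3 and KO9 ameloblasts, against 118 and 46.4 in WT5 and WT10. The groups overlapped, with a log2 difference of -0.37 (SE 0.67). In stratum intermedium it had 82.4, 163.5 and 85.3 in KO1, KO3 and KO9, against 151 and 156 in WT5 and WT10 (log2 difference -0.54, SE 0.52). The other members of its group are Usp18, which removes ISG15, and the ubiquitin ligases Trim25 and Dtx3l. With Isg15 they had log2 differences from -0.37 to 0.46 in ameloblasts and from -0.54 to 0.39 in stratum intermedium. The ADP-ribosyltransferase family members Parp9 and Parp14 gave 0.62 and -1.23 in ameloblasts and -0.17 and 0.037 in stratum intermedium.

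Rtp4, an interferon-induced protein that traffics receptors, had 228, 370.0 and 204 normalized counts in KO1, KO3 and KO9 ameloblasts, against 594 and 363 in WT5 and WT10. KO3 was above WT10, and the log2 difference was -0.85 (SE 0.41, unadjusted limma p 0.0781). In stratum intermedium it had 643, 818 and 890.4 in KO1, KO3 and KO9, against 793 and 589.9 in WT5 and WT10 (log2 difference 0.18, SE 0.28). Ifi27, a small mitochondrial membrane protein, had 744, 706 and 1001 in KO1, KO3 and KO9 ameloblasts, against 1638 and 492 in WT5 and WT10, and 2055, 1879 and 1407 in KO1, KO3 and KO9 stratum intermedium, against 1820.3 and 835 in WT5 and WT10. In ameloblasts all 3 KO libraries were between the WT libraries. In stratum intermedium the log2 difference was 0.51 (SE 0.36), and WT10 was the lowest library.

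The genes of class I antigen presentation showed no common direction. Tap1, a chain of the peptide transporter, had 159, 123 and 167 normalized counts in KO1, KO3 and KO9 ameloblasts, against 129 and 9.79 in WT5 and WT10. Its log2 difference of 1.99 (SE 1.01, unadjusted limma p 0.0889) came with overlapping groups, since KO3 was below WT5, and it was 0.20 without WT10. In stratum intermedium Tap1 had 489, 263 and 187 in KO1, KO3 and KO9, against 192 and 339.8 in WT5 and WT10 (log2 difference 0.18, SE 0.51). Psmb8, a subunit of the immunoproteasome, had 61.5, 127 and 116 in KO1, KO3 and KO9 ameloblasts, against 216 and 127 in WT5 and WT10 (log2 difference -0.77, SE 0.54). In stratum intermedium it had 290.3, 279.7 and 280.2 in KO1, KO3 and KO9, against 342 and 76.5 in WT5 and WT10 (log2 difference 0.80, SE 0.62). The KO libraries were close together there and lay between the WT libraries. B2m, the light chain of class I molecules, had log2 differences of -0.14 in ameloblasts and 0.27 in stratum intermedium. Several members share exonic bases with another gene. On opposite strands Tap1 and Psmb9 share 212, Parp9 and Dtx3l 458, Adar and Chrnb2 1365, and Psmb8 and Gm20496 498, among others. On the same strand Ifnar2 shares 315 with Gm21970, Rtp4 296 with Gm45338, Irf9 123 with Rnf31 and Parp14 110 with Gm49730. The kit keeps the strand, but no source names the strand setting of the authors' counting, so reads in these stretches cannot be assigned with certainty.

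**Figure D3:**
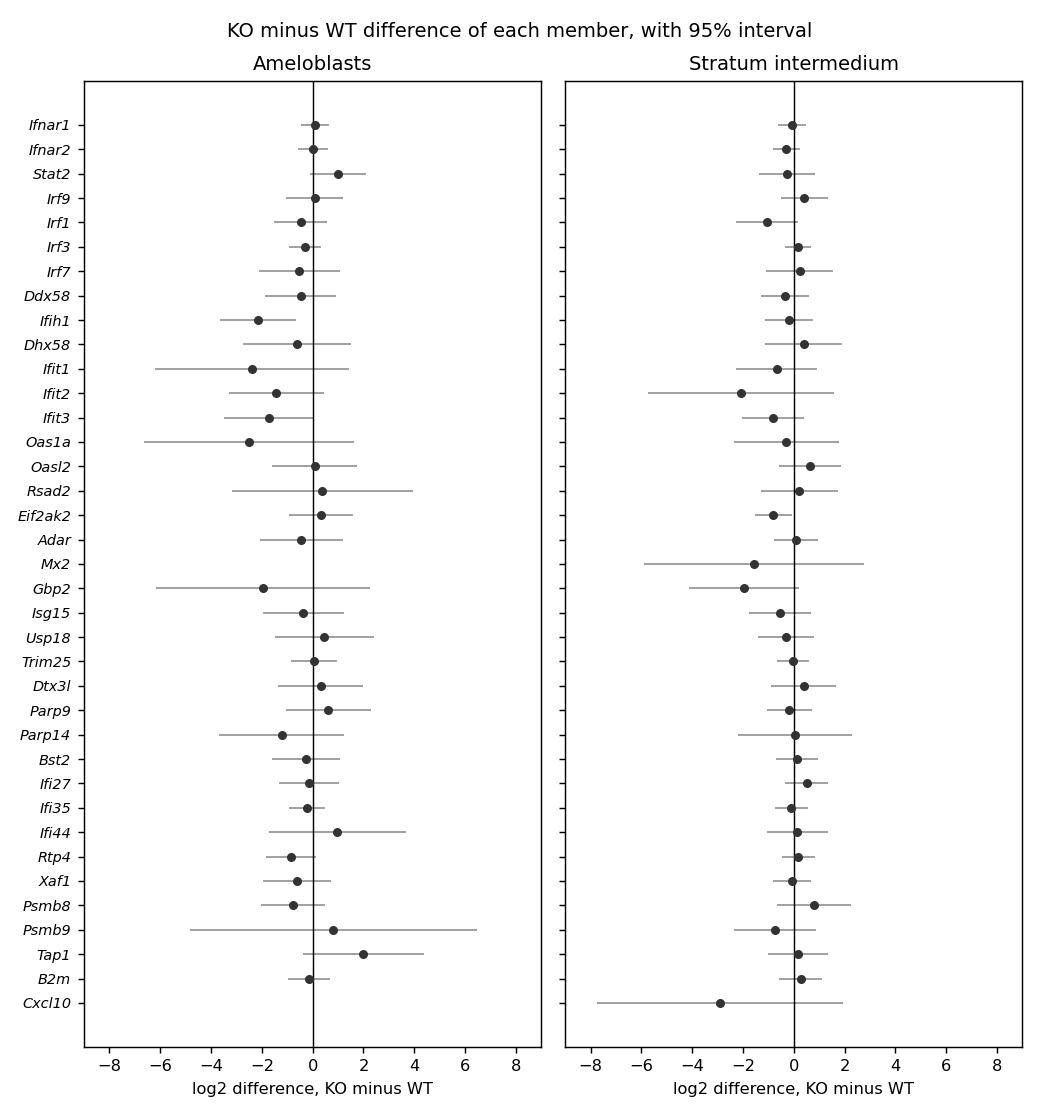
Log2 difference, KO minus WT, of each measured member (points) with the 95% interval of the limma fit (lines), in ameloblasts (left) and stratum intermedium (right). Intervals of 1 gene in each layer leave out 0, Ifih1 in ameloblasts and Eif2ak2 in stratum intermedium, before any adjustment for the number of genes tested.

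By the median member, the 2 WT libraries differed from each other by more than the genotypes did. WT5 had the highest value of the 5 libraries for 24 of 35 members in ameloblasts, against 24.8% of all genes, and for 16 of 37 in stratum intermedium, against 20% of all genes. WT10, the other WT library, was the lowest for 14 of 35 in ameloblasts, against 24.4% of all genes, and for 15 of 37 in stratum intermedium, against 26.8%. KO1 was the lowest for 10 of 35 in ameloblasts (21.5% of all genes) and for 11 of 37 in stratum intermedium (24.6% of all genes). For 9 of 35 members in ameloblasts all 3 KO libraries lay between WT10 as the lowest and WT5 as the highest (9.2% of all genes), and for 6 of 37 in stratum intermedium (8.55% of all genes). The reverse, with WT5 lowest and WT10 highest, was seen for 0 members in both layers, against 7.97% and 6.78% of all genes. In ameloblasts the median member deviated from its 5-library mean by -0.18, 0.20 and -0.038 on the log2 scale in KO1, KO3 and KO9, against 0.86 and -0.35 in WT5 and WT10. In stratum intermedium the same median was -0.047, 0.087 and -0.10 in KO1, KO3 and KO9, against 0.36 and -0.050 in WT5 and WT10. The 2 WT libraries were thus farther apart than any 2 KO libraries in both layers. The number of listed genes at 0, a sign of library complexity, differed among the same libraries. It was 224, 41 and 420 in KO1, KO3 and KO9 ameloblasts, against 33 and 706 in WT5 and WT10, and 633, 109 and 210 in KO1, KO3 and KO9 stratum intermedium, against 36 and 854 in WT5 and WT10. WT5 had the fewest and WT10 the most in both layers, and the part of this in the members' levels was not tested.

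Comparing KO with WT inside a library group gave opposite signs in the 2 groups. In group 1, KO3 was below WT5 for 31 of 35 members in ameloblasts (50% of all genes), with a median of -0.50 on the log2 scale, and for 26 of 37 in stratum intermedium (50.5% of all genes), with a median of -0.29. In group 2, KO9 was below WT10 for 13 of 35 members in ameloblasts (48.6% of all genes), with a median of 0.27, and for 15 of 37 in stratum intermedium (47.5%), with a median of 0.17. Each group holds 1 KO and 1 WT library per layer, so these are values with no test, and group 3 holds KO1 alone. The comparisons also differ in sex. Group 1 sets KO3, with Xist and no Ddx3y, against WT5 with Ddx3y, whereas KO9 and WT10 of group 2 both carried Ddx3y.

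Markers of other cell types also differed between the libraries. The 13 macrophage and other myeloid markers, all listed in both layers, took 0.0191%, 0.0307% and 0.0431% of the summed values in KO1, KO3 and KO9 ameloblasts, against 0.0807% and 0.0275% in WT5 and WT10. In stratum intermedium they took 0.0388%, 0.0548% and 0.0622% in KO1, KO3 and KO9, against 0.0877% and 0.0205% in WT5 and WT10. WT5 was the highest library in both layers, as it was for the interferon response genes, and Adgre1 in KO1 stratum intermedium was the single marker at 0. The 7 osteoclast markers took 0.102% to 0.452% in KO ameloblasts, against 0.756% and 0.346% in WT5 and WT10, and 0.237% to 0.595% in KO stratum intermedium, against 0.919% and 0.187%. The 5 red blood cell markers took 0.0814% to 0.144% in KO ameloblasts, against 1.28% and 0.244% in WT5 and WT10, and 0.152% to 0.258% in KO stratum intermedium, against 0.911% and 0.146%. The 6 fibroblast markers took 2.35% to 3.56% in KO ameloblasts, against 4.64% and 2.86% in WT5 and WT10, and 3.03% to 3.48% in KO stratum intermedium, against 5.04% and 1.98%. The 6 odontoblast and pulp markers, 2 of which are also fibroblast markers, took 2.59% to 3.73% in KO ameloblasts, against 4.41% and 3.25% in WT5 and WT10, and 2.64% to 2.97% in KO stratum intermedium, against 4.71% and 1.76%. The 8 skeletal muscle markers took 0.236%, 0.167% and 0.0565% in KO1, KO3 and KO9 ameloblasts, against 0.301% and 0.0151% in WT5 and WT10, but in stratum intermedium they took 0.445%, 0.601% and 0.170% in KO1, KO3 and KO9, against 0.277% and 0.0931% in WT5 and WT10. Endothelial markers were highest in WT5 ameloblasts but lowest in WT5 stratum intermedium, and ranged from 0.0070% to 0.0425% over all libraries. Of 9 lymphocyte and plasmacytoid dendritic markers, 2 were listed in ameloblasts and 3 in stratum intermedium, and Cd3e, Cd3g, Cd2, Ms4a1, Nkg7 and Siglech had no value in either. The listed ones took 0.0250% in WT5 and 0.0037% in KO3 ameloblasts, mainly through Ly6d. In stratum intermedium they took 0.0090% in KO3 and 0.0025% in WT5, again mainly through Ly6d. Every other library had at most 0.000296%. The part of these cells in the levels of the interferon response genes was not tested. In such captured tissue, fewer cells of a type and less RNA per cell cannot be told apart.

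**Figure D4:**
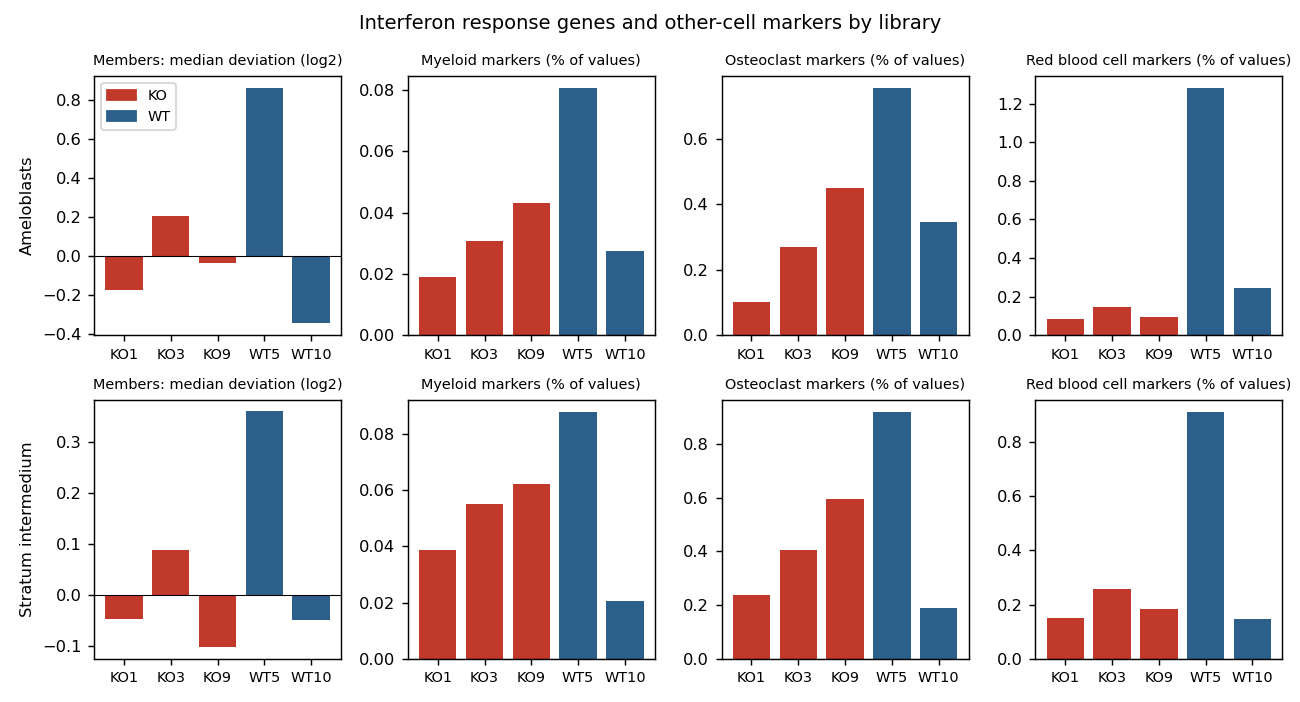
Bars by library (KO red, WT blue) in ameloblasts (top) and stratum intermedium (bottom): the median deviation of the interferon response genes from their 5-library mean (log2), and the share of the summed normalized counts taken by myeloid, osteoclast and red blood cell markers (%). WT5 has the tallest bar in every panel, and in ameloblasts it reached 0.86 for the members and 0.0807% for the myeloid markers.

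Levels between genes were compared per kilobase of exon. B2m was the most abundant member in every group, at 7036 normalized counts per kilobase in KO ameloblasts and 8405 in WT ameloblasts, and 11303 in KO stratum intermedium and 10171 in WT stratum intermedium. Ifi27 and Bst2, the tetherin that holds budding virions at the cell surface, followed in all 4 groups. Ifi27 had 557 per kilobase in KO ameloblasts and 726 in WT ameloblasts. Per kilobase, 11 of 35 members stood above the median of all listed genes in KO ameloblasts and 11 of 35 in WT ameloblasts, and 14 of 37 in KO stratum intermedium and 15 of 37 in WT stratum intermedium. Ifih1 was the second lowest member in KO ameloblasts at 7.35 per kilobase, and Mx2 the lowest in stratum intermedium, at 3.05 in KO and 4.30 in WT. Together the 35 members took 0.0505% to 0.0677% of all values in KO ameloblasts, against 0.101% and 0.0525% in WT5 and WT10 ameloblasts. The 37 members took 0.0988% to 0.113% in KO stratum intermedium, against 0.121% and 0.0847% in WT5 and WT10.

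Levels in the 2 layers are set side by side as a description, since the tables were normalized separately. Of the 35 members measured in both, 19 were lower in ameloblasts than in stratum intermedium within all 5 library prefixes, against 17.8% of all genes, and 0 were higher in all 5, against 5.93%. The median member was lower in ameloblasts by -1.02, -0.76 and -0.93 on the log2 scale in KO1, KO3 and KO9, against -0.39 and -0.88 in WT5 and WT10, while the median of all genes lay between -0.17 and -0.11. After centring each prefix on its median gene, 11 members stayed lower in all 5 prefixes, against 9.96% of all genes. They were Rtp4, B2m, Parp9, Usp18, Irf9, Bst2, Oasl2, Isg15, Ifi35, Dtx3l and Rsad2, which include the DNA-binding factor of the ISRE complex, the ISG15 protein and its protease. No member was higher in all 5 prefixes after centring, against 11.1% of all genes. The myeloid marker share was higher in stratum intermedium than in ameloblasts in KO1, KO3, KO9 and WT5 and lower in WT10, while the endothelial share was higher in stratum intermedium in all 5 prefixes. Endothelial markers took 0.0086%, 0.0143% and 0.0132% in KO1, KO3 and KO9 ameloblasts and 0.0249% and 0.0070% in WT5 and WT10 ameloblasts. In stratum intermedium they took 0.0366%, 0.0373% and 0.0425% in KO1, KO3 and KO9 and 0.0331% and 0.0386% in WT5 and WT10. The part of these cells in the layer difference was not tested.

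**Figure D5:**
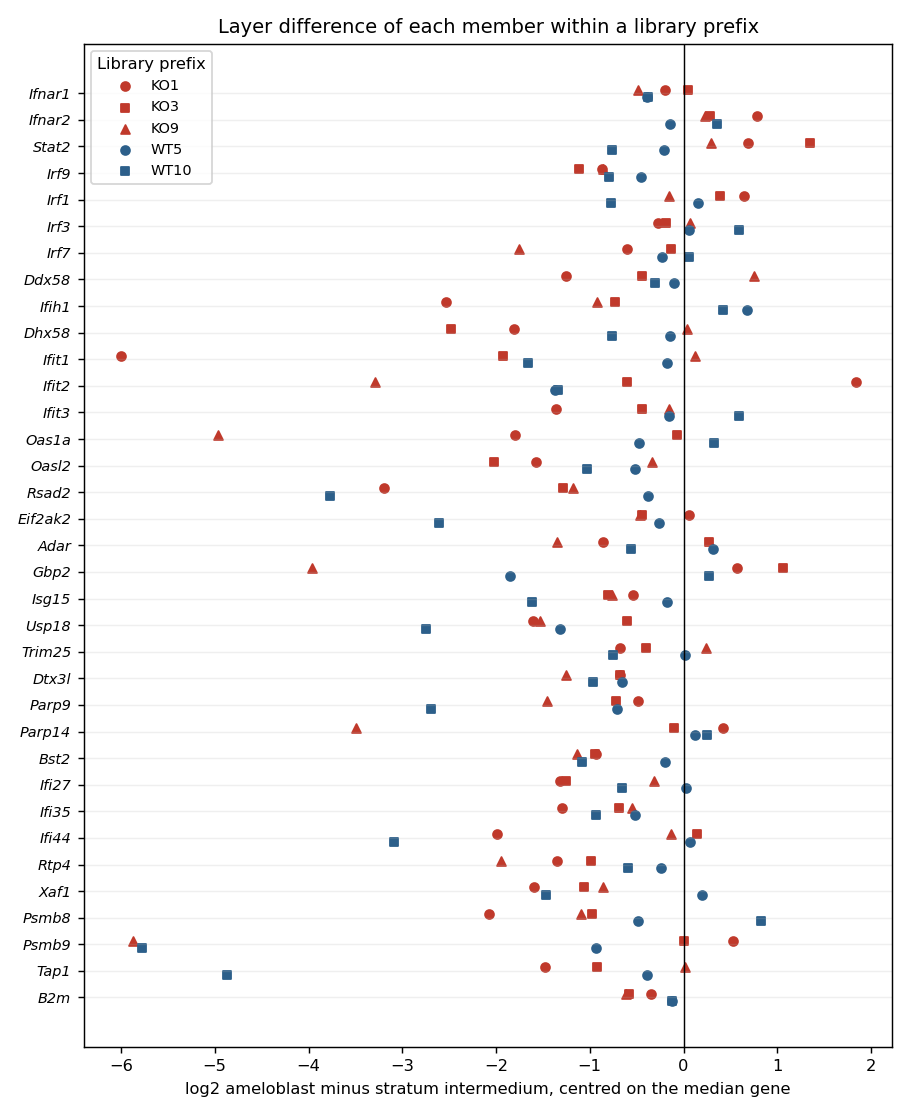
Ameloblast minus stratum intermedium log2 difference of each of the 35 members measured in both layers, within each library prefix (KO red, WT blue), after centring on the median gene of that prefix. Most points lie left of 0, and 11 genes have all 5 points there.

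The difference of the KO effects, that in ameloblasts minus that in stratum intermedium, was tested with limma over the 5 prefixes for 15567 genes. No gene passed (0%; smallest adjusted p 0.263). At an unadjusted p under 0.05, 2 of 35 members were lower, Ifih1 and Psmb8, against 2.23% of all genes, and 1 was higher, Stat2, against 2.57%. The median member differed by -0.13 and the median of all genes by 0.0069, and the member median was 0.025 without WT5. For Ifih1, ameloblasts minus stratum intermedium was -2.68, -0.88 and -1.10 in KO1, KO3 and KO9, against 0.51 and 0.31 in WT5 and WT10. The difference of the effects for Ifih1 was -1.96 (SE 0.64, unadjusted limma p 0.0263, adjusted p 0.864). For Stat2 the layer difference was 0.54, 1.19 and 0.12 in KO1, KO3 and KO9, against -0.39 and -0.88 in WT5 and WT10, so that the difference of the effects was 1.25 (SE 0.42, unadjusted limma p 0.0304, adjusted p 0.864). Psmb8 and Rtp4 gave differences of the effects of -1.57 (SE 0.61) and -1.03 (SE 0.48). The number of members at an unadjusted limma p under 0.05 was 1 of 35 without KO1, without KO3 or with library weights. Over all 15567 genes it was 672, 583 and 669 in these settings. Without WT10, which leaves WT5 as the only WT prefix, the median member difference was -0.49.

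The genotype differences of all members with an ISRE match, shown above or not, were set beside those of members whose window held none. The 12 members with an ISRE match that were measured in ameloblasts had a median log2 difference of -0.42, with 9 of 12 lower in KO, and the 17 without one had a median of 0.0090, with 8 of 17 lower, where 47% of all genes were lower. In stratum intermedium the 13 members with a match had a median of -0.34, with 10 of 13 lower in KO, and the 17 without one had 0.10, with 8 of 17 lower, where 48.1% of all genes were lower. Members overlap widely between genotypes in both sets. Stat2, Rsad2 and Eif2ak2, which have a match, were higher in KO ameloblasts (log2 differences 0.98, 0.38 and 0.33). In KO stratum intermedium B2m, Rsad2 and Bst2, which have a match, were higher. The split was not repeated with single libraries left out, and the median of all members in ameloblasts was 0.098 without WT5. Within library group 2 (KO9 minus WT10), members with a match went both ways in ameloblasts. The log2 difference was 3.82 for Rsad2, 1.39 for Stat2, 1.24 for Eif2ak2 and 0.71 for Ddx58. It was 0.45 for B2m, 0.44 for Bst2 and 0.27 for Ifit1. On the other side were Ifih1 (-1.79), Ifit3 (-0.65), Isg15 (-0.066), and Gbp2 (-5.76) and Oas1a (-4.95), both at 0 in KO9. The same libraries give all these values, and no test was made over the genes.

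Other genes of the pathway were taken from 6 lists with 121 genes, of which 95 were measured in ameloblasts and 96 in stratum intermedium. None passed the adjusted test in either layer. In ameloblasts 45 were higher and 50 lower in KO (47% of all genes lower), and at an unadjusted p under 0.05 there were 0 higher and 2 lower, against 2.25% and 0.82% of all genes. These 2 were Ifit3b, with 21.6, 15.8 and 7.68 normalized counts in KO1, KO3 and KO9, against 59.6 and 93.5 in WT5 and WT10, and Ifi30, a lysosomal thiol reductase of antigen processing. Ifi30 had 399, 565 and 769.7 in KO1, KO3 and KO9, against 1805 and 821 in WT5 and WT10, and the groups of both genes did not overlap, although WT10 and KO9 lay close together for Ifi30. The unadjusted limma p of Ifi30 was 0.036, and it was 0.080 with the library group as a block, 0.294 with sex as a covariate and 0.246 without WT5. In stratum intermedium 43 were higher and 53 lower in KO (48.1% of all genes lower), with 0 higher and 1 lower at an unadjusted p under 0.05, against 1.27% and 0.786% of all genes. This was Gbp7, a guanylate-binding GTPase, with a log2 difference of -0.87 (unadjusted limma p 0.016, and 0.071 with sex as a covariate).

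The kinases of the signalling chain were also measured. Jak1, a kinase of both interferon receptors, had 3271, 3251 and 2916 normalized counts in KO1, KO3 and KO9 ameloblasts, against 2692 and 3609 in WT5 and WT10. Its log2 difference was 0.012 in ameloblasts and -0.049 in stratum intermedium, with overlapping groups. Tyk2, the other kinase of the type I receptor, had log2 differences of 0.012 in ameloblasts and 0.48 in stratum intermedium. Of the 20 other signalling genes 13 were measured in each layer, and the 7 interferon genes on that list, Ifnb1, Ifna1, Ifna2, Ifna4, Ifng, Ifnl2 and Ifnl3, had no value in either table. By list, 8 of 13 signalling genes, 4 of 10 nucleic acid sensing genes, 26 of 44 other interferon-stimulated genes, 6 of 10 GTPase genes, 4 of 15 antigen presentation genes and 2 of 3 chemokines were lower in KO ameloblasts, against 47% of all genes. In KO stratum intermedium the lower ones were 9 of 13, 4 of 10, 22 of 43, 7 of 10, 11 of 17 and 0 of 3 in the same order of lists, against 48.1% of all genes.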

How the data were processed

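RNA was measured in 5 ameloblast and 5 stratum intermedium libraries. The authors deposited signal values, normalized counts of each gene, in a separate table per layer whose name refers to DESeq2 normalization and Ensembl release 101. The submitters' processing notes list GRCm38 and, with no settings, STAR 2.5.2b, Picard 2.8.1, featureCounts, DESeq and FastQC. Whole reads could not be recovered from the values, so depth is unknown, no count test was run and no counting intervals were given. Library names linked columns to samples, leaving 0 columns unused. The name of each layer's table also holds the word noOutlier, which no label explains. Whether the authors left out libraries as outliers before deposit is therefore unknown.

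The members and all lists were chosen with earlier results of these data known. Within a layer, genes averaging at least 10 were fitted as log2(value + 1) by limma 3.58.1 with a trend (R 4.3.3, two-sided), with Benjamini-Hochberg adjustment over all genes, and fold changes on that scale understate changes of low genes. The difference of the KO effects was fitted on the ameloblast minus stratum intermedium difference of each library prefix. Library values are given for members among the 8 smallest unadjusted p in a layer or the 4 smallest in the difference, and for Ifnar1, Ifnar2, Stat2, Irf9, Irf7 and Isg15. A gene of the pathway lists is not reported here by name. The fits were tested on simulated data. Exon lengths and overlaps came from GENCODE on GRCm38, and promoter windows from RefSeq on GRCm38.p6. The alternatives tried were other pseudocounts (0.5, 8), other filters (none, a mean of 50), quantile normalization, median-ratio rescaling that omits mitochondrial, haemoglobin and the 20 most abundant genes, library weights (statmod 1.5.0), a library group block, a replicate block, a sex covariate, and leaving out each library. Python 3.11.15 and matplotlib 3.10.9 made the plots.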

Additional observations from a re-analysis of the deposited data

How the results depend on the processing

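No member had an adjusted p under 0.05 under any alternative. The count over all genes stayed at 0, except for 1 gene in ameloblasts without WT replicate 2 (WT5); leaving out each library gave 0 to 1 gene in ameloblasts and 0 in stratum intermedium and in the difference of the KO effects. Leaving out each library moved the median member difference between -0.92 and 0.098 in ameloblasts, between -0.35 and -0.026 in stratum intermedium, and between -0.49 and 0.025 in the difference. Within library group 2 it was 0.27 in ameloblasts and 0.17 in stratum intermedium, and within group 1 -0.29 in stratum intermedium. With the replicate number as a block, 0 genes passed in either layer and the medians were -0.21 in ameloblasts and -0.073 in stratum intermedium. The groups share 2 numbers per layer and nothing states that these pair libraries. The deviations of same-numbered libraries correlated at 0.086 and -0.12 in ameloblasts and -0.19 and -0.13 in stratum intermedium. Libraries of the same library group correlated at 0.27 and 0.12 in ameloblasts and 0.19 and 0.0059 in stratum intermedium. Deviations were taken from the mean of each genotype, so those of the 2 WT libraries mirror each other. Such correlations cannot decide whether libraries are paired.

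Of 268 alternative values for 18 named genes in ameloblasts 14 changed sign, of 284 for 19 genes in stratum intermedium 15 did, and of 56 for 4 genes in the difference 0 did; the cause was not tested. The sex covariate leaves the KO effect to KO9 alone. With it, the log2 difference in ameloblasts was 0.16 for Ifi27, -0.14 for Ifnar2 and -0.12 for Irf9, and in stratum intermedium 0.25 for Ifit2, 0.26 for Ifnar1, 0.16 for Stat2 and -0.45 for Tap1. With the library group block it was -0.095 for Ifnar2 in ameloblasts, and 0.049 for Ifnar1 and -0.20 for Tap1 in stratum intermedium. Ifnar2 in ameloblasts was -0.039 with quantile normalization and -0.025 with library weights, and Irf9 was -0.018 there with the replicate block. Over left-out libraries the ranges that crossed 0 in ameloblasts were -0.58 to 1.24 for Eif2ak2, -1.02 to 0.71 for Ifi27, -0.15 to 0.17 for Ifnar2, -0.64 to 0.79 for Irf9 and -1.03 to 0.30 for Isg15. In stratum intermedium they were -0.050 to 1.07 for Ifi27, -0.23 to 0.049 for Ifnar1, -0.21 to 0.67 for Irf7, -0.16 to 0.99 for Irf9, -1.34 to 0.76 for Oas1a, -0.27 to 1.88 for Psmb8, -0.030 to 0.40 for Rtp4 and -0.24 to 0.59 for Tap1. Ifih1 in ameloblasts lay between -2.52 and -1.66, and Eif2ak2 in stratum intermedium between -1.03 and -0.57.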
